A study of Cercocebus atys with 16 samples.

Results

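Transcripts typical of monocytes were measured in T cells that had been purified from the blood of sooty mangabeys (Cercocebus atys). The 9 genes, called the members, were S100A8, S100A9, VCAN, CLEC4A, C19H19orf59, TYROBP, AIF1, CD14 and LYZ. All probes carrying one of these gene names were taken, which gave 16 of the 43603 distinct probes on the array. Every one of the 16 was bright enough to be tested, and the brightest stood for its gene among 23038 tested features, each 1 of 8630 named genes or an unnamed probe. The genes were chosen by name and not by their values here, although earlier results of these data were known.

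The cells were double-negative T cells: they have CD3 on the surface and neither CD4 nor CD8. Per the labels, beads removed cells with CD4, CD8 or CD16 and then selected cells with CD3, purity was above 98%, and the cells rested overnight. No bead against CD14 is named. Every animal carried SIV, a simian relative of HIV, so no uninfected control was measured. The labels give FNV and FKN a normal CD4 status and FBR and FTV a low one, 2 animals each. Purified cells of each animal received anti-CD3 (3 mg/ml per the labels) and anti-CD28 (1 mg/ml), which trigger the T cell receptor and a costimulatory receptor, and were lysed 4 hours later; other cells of the animal were left unstimulated. Ages are not given in the sources used here. Each animal had 2 arrays with stimulated RNA against unstimulated RNA in opposite dyes and 2 arrays with the same RNA in both channels, called self-self arrays, which makes 16 arrays. Replicates are animals, with 1 culture per animal and condition.

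The arrays of FNV stood apart before any result. They were scanned earlier and on another scanner than those of the other animals, so for FNV animal and scan cannot be told apart. The share of spots well above background ran from 33.3% to 64.8% over the channels of the 4 FNV arrays and from 57% to 65% over the other 12. On 1 FNV ratio array the title and a characteristic name opposite RNAs in channel 2, and the title was followed. With that reading the ratios of the FNV pair of arrays correlated at 0.912 across 23033 features, against 0.931 to 0.935 in the other animals; features are not independent replicates. The array was designed on the rhesus macaque, so probes can hybridise more weakly to mangabey transcripts that differ in sequence.

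Monocytes are blood phagocytes that take up microbes and debris, sense bacterial products and release inflammatory proteins. They carry much RNA for S100A8 and S100A9, which pair to form calprotectin, for the antibacterial enzyme lysozyme (LYZ) and for CD14, the receptor that hands bacterial lipopolysaccharide to the TLR4 complex. T cells are defined by the CD3 chains of the T cell receptor, here CD3E and CD3D, and are not known for these monocyte products. In bulk samples such as these, fewer cells of a type and less RNA per cell cannot be told apart.

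Probes of 4 genes are shown because the results turn on them: both calprotectin chains, whose responses varied least, the defining surface receptor, and the gene with the widest spread between animals. Each is 60 bases, written 5′ to 3′ as the array files give it, with the position in rheMac2 that the array's annotation gives. That annotation names a gene and a transcript for each position and no exon. For S100A9 and LYZ the probe shown is the dimmer one, while the brighter one stood for the gene in the results.
S100A8, chr1:131917357-131917416, minus strand: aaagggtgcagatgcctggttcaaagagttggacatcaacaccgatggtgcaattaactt
S100A9, the dimmer of its 2 probes, chr1:131889609-131889668, plus strand: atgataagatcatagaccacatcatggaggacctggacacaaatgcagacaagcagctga
CD14, chr6:137033643-137033702, minus strand: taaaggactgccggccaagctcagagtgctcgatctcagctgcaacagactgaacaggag
LYZ, the dimmer of its 2 probes, chr11:66347924-66347983, plus strand: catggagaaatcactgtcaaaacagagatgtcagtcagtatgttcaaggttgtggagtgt

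These were different places on the transcripts, so the brightness of 2 probes says nothing of which transcript is more abundant. The GC content was 45% for the S100A8 and S100A9 probes shown, 55% for CD14 and 41.7% for LYZ. The brighter S100A9 probe lies at chr1:131889882-131889941 and the brighter LYZ probe at chr11:66348348-66348407. The other genes lie on chromosome 6 (VCAN, 3 probes), chromosome 11 (CLEC4A, 2 probes), chromosome 19 (C19H19orf59, 1 probe, and TYROBP, 2 probes) and chromosome 4 (AIF1, 2 probes). S100A8 and S100A9 lie close together on chromosome 1, as do CD3E and CD3D on chromosome 14.

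The first question was how much of these transcripts the purified cells held at rest, and how that compared between animals. All 9 genes were detected in unstimulated cells of every animal: the probe that stood for each was well above background in 16 of 16 unstimulated channels. After normalisation all 9 were highest in FNV. Of all tested features, 46.2% were highest in FNV at rest, so the members' order is to be read against that share. Levels are log2 brightness after normalisation, so a difference of 1 is a doubling. They are means of 4 channels per animal, whose SD was 0.02 to 0.22 for the members at rest. That SD is technical, and with 1 culture per animal and condition a difference between 2 animals was not tested. Before normalisation, S100A9 on the unstimulated self-self arrays read 1872 and 4726 (channels 1 and 2) in FNV and 4062 and 8792 in FTV. CD14 read 979.3 and 2450 in FNV and 1449 and 2667 in FTV. For these 2 genes the order of FNV and FTV depended on the scaling between arrays. LYZ was brightest in FNV there too, at 26270 and 69530, against 5865 and 13670 in FKN.

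Among the calcium-binding proteins, S100A8 stood at 11.38 in FNV, 8.64 in FKN, 8.59 in FBR and 9.96 in FTV. FNV was highest, FTV next, and FKN and FBR lay close together. S100A9 stood at 12.87 in FNV, 10.27 in FKN, 10.32 in FBR and 12.29 in FTV, the same order of a high pair and a low pair. Its second probe gave 11.25, 9.03, 9.10 and 10.93. AIF1, a calcium-binding protein of macrophages that binds actin, stood at 10.15 in FNV, 7.71 in FKN, 6.67 in FBR and 6.73 in FTV. In FBR and FTV it lay little above the probes that were never well above background in those unstimulated cells, whose 95th percentile was 6.52 in both.

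Of the membrane proteins, CD14 stood at 11.88 in FNV, 10.27 in FKN, 10.47 in FBR and 10.72 in FTV. It had the narrowest resting range of the members, 1.61, with FKN, FBR and FTV within 0.45 of each other. CLEC4A, an inhibitory C-type lectin of myeloid cells, stood at 13.81 in FNV, 10.41 in FKN, 9.63 in FBR and 10.79 in FTV. TYROBP, the adaptor (DAP12) that couples activating receptors of myeloid and natural killer cells to SYK, stood at 13.38, 10.52, 9.80 and 11.20 in the same order of animals. For both, FNV was highest, FTV second and FBR lowest. C19H19orf59, named MCEMP1 in humans and coding for a membrane protein of mast cells and monocytes, stood at 9.77 in FNV, 8.56 in FKN, 7.13 in FBR and 7.01 in FTV, with FKN and not FTV in second place.

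Of the secreted proteins, LYZ spread most, with 16.48 in FNV, 12.63 in FKN, 10.46 in FBR and 10.54 in FTV. The highest animal was 64.9-fold above the lowest by this probe and 86.8-fold by the other. FBR and FTV lay close together, far below FNV and FKN. VCAN, the matrix proteoglycan versican, stood at 9.83 in FNV, 8.10 in FKN, 7.49 in FBR and 7.91 in FTV. FTV minus FKN was -0.19, so FNV stood apart from the other 3.

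The members thus did not share one order below FNV. FTV was second for S100A8, S100A9, CLEC4A, TYROBP and CD14, and FKN was second for VCAN, C19H19orf59, AIF1 and LYZ. The level in FTV minus that in FKN was 2.02 for S100A9 and -2.09 for LYZ.

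**Figure D1:**
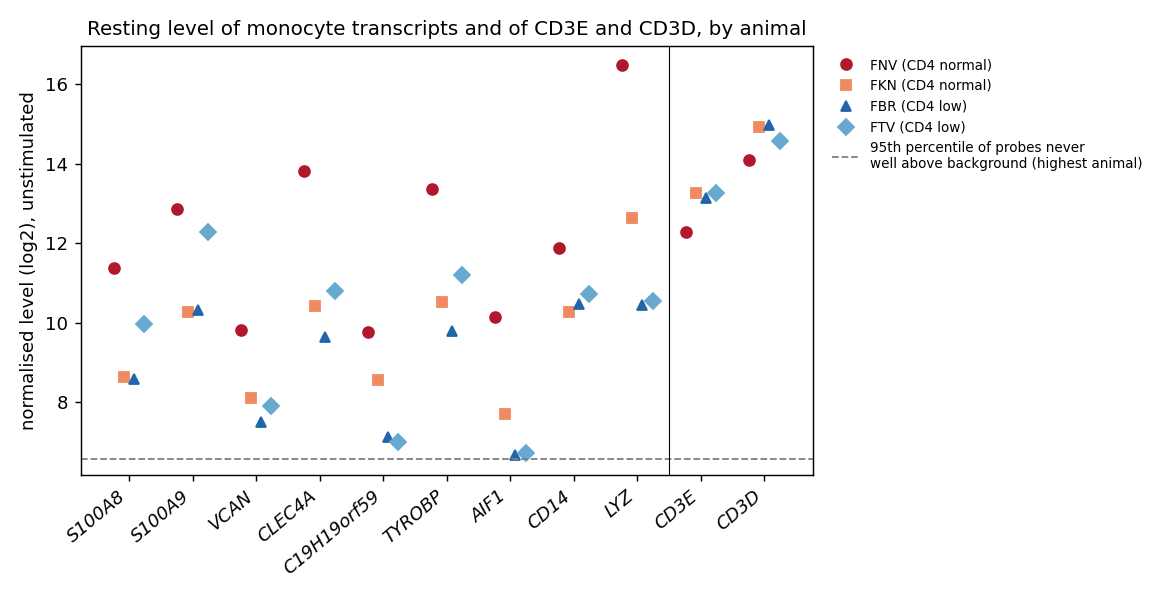
Normalised level (log2) in unstimulated cells of the 9 monocyte transcripts and, right of the line, CD3E and CD3D, with 1 point per animal (mean of 4 channels). FNV is the highest animal for each monocyte transcript, from 9.77 for C19H19orf59 to 16.48 for LYZ, and the lowest for CD3E (12.28) and CD3D (14.10). The dashed line at 6.56 is the highest 95th percentile, among the animals, of probes never well above background in unstimulated cells.

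The T cell genes ran the other way in FNV. CD3E stood at 12.28 in FNV, 13.27 in FKN, 13.14 in FBR and 13.27 in FTV. CD3D stood at 14.10, 14.92, 14.97 and 14.58 in the same order. FNV was lowest for both, by 0.95 for CD3E and 0.72 for CD3D below the mean of the other animals. Set against CD3E of the same animal, LYZ stood at 4.20 in FNV, -0.64 in FKN, -2.68 in FBR and -2.72 in FTV at rest. S100A9 stood at 0.60, -3.00, -2.82 and -0.98 against CD3E, and CD14 at -0.40, -3.00, -2.67 and -2.55. These differences compare animals only, since different probes are set against each other. The range between animals against CD3E was 2.60 for CD14, between 3.21 and 5.05 for the other 7 genes and 6.92 for LYZ. Against CD3D it was 2.43 for CD14 and 6.89 for LYZ.

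Stimulation lowered 6 of the 9 transcripts: S100A8, S100A9, VCAN, CLEC4A, TYROBP and CD14. None rose, and C19H19orf59, AIF1 and LYZ did not pass the test. A gene is said to have fallen or risen when limma's moderated test of the 4 animals' log2 ratios of stimulated over unstimulated gave a Benjamini-Hochberg adjusted p under 0.05 over all tested features. Of all features, 20.9% fell and 19.1% rose, with a median response of -0.01, so a fall as such was common, and the median of the 9 members was -0.90. In each animal the median over the members was negative, at -1.46 in FNV, -0.87 in FKN, -0.46 in FBR and -0.80 in FTV.

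The calprotectin chains gave the most even falls. S100A9 changed by -0.81 in FNV, -0.77 in FKN, -0.93 in FBR and -0.84 in FTV, a mean of -0.83 ± 0.07 (SD, n = 4) or 1.78-fold lower, with a limma adjusted p of 0.000731. Its second probe gave -0.86 ± 0.19. S100A8 changed by -1.26, -0.80, -0.93 and -0.91, a mean of -0.97 ± 0.20 or 1.97-fold lower (limma adjusted p = 0.00132). For S100A9 all 4 animals lay together although FNV and FTV had much higher resting levels than FKN and FBR. For S100A8 FNV, the highest at rest, fell most, and the other 3 lay together.

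TYROBP also fell in every animal, by -1.35 in FNV, -0.87 in FKN, -0.68 in FBR and -0.84 in FTV (mean -0.94 ± 0.29, limma adjusted p = 0.00338). CD14 changed by -1.46, -0.92, -0.29 and -0.80 (mean -0.87 ± 0.48, limma adjusted p = 0.0185). VCAN changed by -1.53, -1.60, -0.46 and -0.99 (mean -1.14 ± 0.53, limma adjusted p = 0.0104), and its other probes gave -0.52 and -0.50. CD14 and VCAN fell least in FBR. CLEC4A changed by -1.75 in FNV, -1.54 in FKN, -0.54 in FBR and -0.32 in FTV, a mean of -1.04 ± 0.71 (limma adjusted p = 0.0331). The CLEC4A animals split into a pair with large falls and a pair with small ones.

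The other 3 genes did not pass. C19H19orf59 changed by -1.69 in FNV, -1.42 in FKN, -0.23 in FBR and -0.25 in FTV (mean -0.90 ± 0.77, limma adjusted p = 0.0602), the same split as CLEC4A. LYZ changed by -1.93, -0.57, 0.10 and -0.13 (mean -0.63 ± 0.91, limma adjusted p = 0.197). AIF1 changed by -1.38, -0.15, 0.05 and 0.07 (mean -0.35 ± 0.69, limma adjusted p = 0.33). For LYZ and AIF1 only FNV moved by more than 1. The second LYZ probe gave -1.99, -0.48, 0.17 and -0.08 and the second AIF1 probe -1.38, -0.06, -0.15 and 0.07, the same pattern apart from the sign of AIF1 in FBR. C19H19orf59 and AIF1 in FBR and FTV lay near the level of undetected probes, where the offset of 50 added to the brightness shrinks a ratio.

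**Figure D2:**
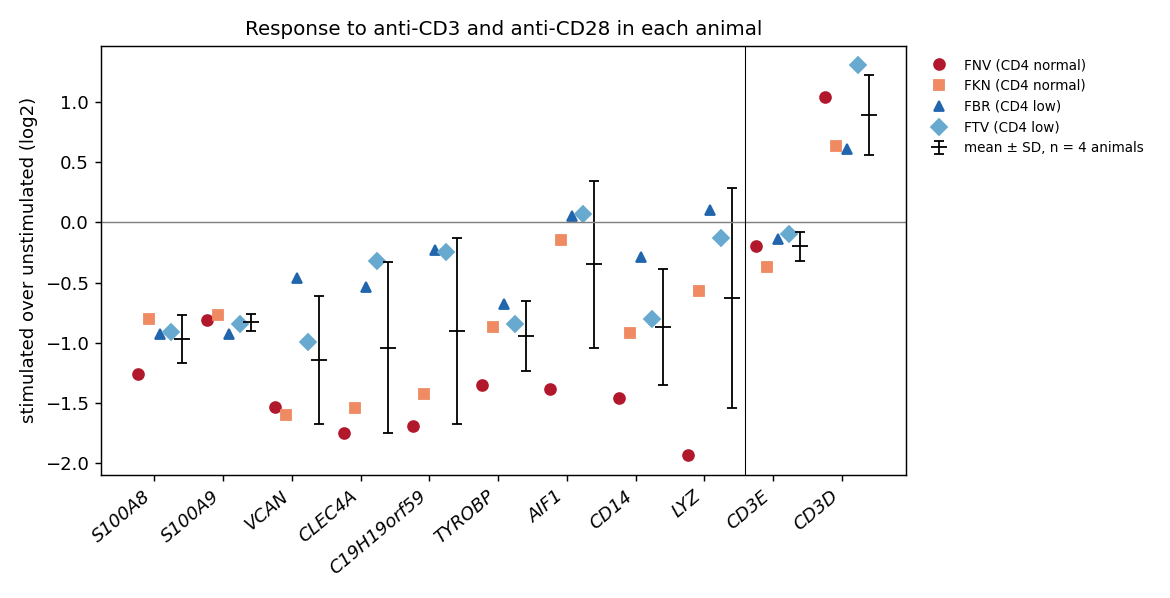
Log2 ratio of stimulated over unstimulated cells in each animal for the 9 monocyte transcripts and, right of the line, CD3E and CD3D; black marks give the mean ± SD of 4 animals. The S100A9 points lie between -0.93 and -0.77, while those of LYZ run from -1.93 in FNV to 0.10 in FBR.

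Leaving out single animals separated the firm calls from the others. S100A8, S100A9, VCAN and TYROBP passed without any one animal, with limma adjusted p from 0.00101 to 0.0459. CLEC4A did not pass without FNV (-0.80), FKN (-0.87) or FBR (-1.20), with limma adjusted p of 0.0542, 0.124 and 0.0652. CD14 did not pass without FKN (-0.85) or FTV (-0.89), with limma adjusted p of 0.0774 and 0.0608. Without FNV the mean was -0.20 for LYZ and -0.01 for AIF1, so their mean falls rested on that animal. With median centring in place of loess, only S100A8, S100A9 and VCAN passed. That centring left the FNV ratios with a median of -0.23 over all features, against 0.03 to 0.04 in the other animals. With an offset of 0, C19H19orf59 passed at -1.23 (limma adjusted p = 0.0255).

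The same RNA in both channels gave little difference. Over the member probes on the 8 self-self arrays, 127 of 128 log2 ratios were under 0.30 in size, and the median size was 0.05. The largest was 0.42, for the second LYZ probe. Over all tested features the 95th percentile was 0.23. Comparing stimulated with unstimulated self-self arrays, which were not used for the ratios above, gave means of -1.01 for S100A8, -0.93 for S100A9 and -0.93 for CD14. They share the RNA samples with the ratio arrays and are no independent replicate.

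In the authors' deposited table of log2 ratios, S100A8 averaged -1.10, S100A9 -0.87, CLEC4A -1.04, TYROBP -0.94, CD14 -0.89 and LYZ -0.66. It gave -1.33 for C19H19orf59 and -1.82 for the VCAN probe used above, both larger in size than here. For that VCAN probe and for the AIF1 probe used above, the authors' deposited table has no value for FNV, and this AIF1 probe averaged 0.03 over the other 3 animals in it. The second AIF1 probe has all 4 animals in the authors' deposited table, with -1.68 in FNV and a mean of -0.65.

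CD3E and CD3D, the T cell references, moved in opposite directions. CD3E changed by -0.20 in FNV, -0.37 in FKN, -0.14 in FBR and -0.10 in FTV (mean -0.20 ± 0.12, limma adjusted p = 0.0591), which did not pass. CD3D rose by 1.04, 0.63, 0.61 and 1.30 (mean 0.89 ± 0.33, limma adjusted p = 0.00588). Relative to CD3E in the same animal, the response was -0.77 ± 0.26 for S100A8, -0.63 ± 0.17 for S100A9, -0.73 ± 0.29 for TYROBP, -0.66 ± 0.46 for CD14, -0.43 ± 0.88 for LYZ and -0.15 ± 0.69 for AIF1 (SD, n = 4). The median over the 9 genes was -0.69 against CD3E, -0.64 against the median of the T cell genes and -1.79 against CD3D, which itself rose. Among these references the choice moved the size of this median and not its sign. The T cell markers SIT1 (-1.97) and CD5 (-1.0) fell by more than the members' median of -0.90 and were not used alone as a reference.

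**Figure D3:**
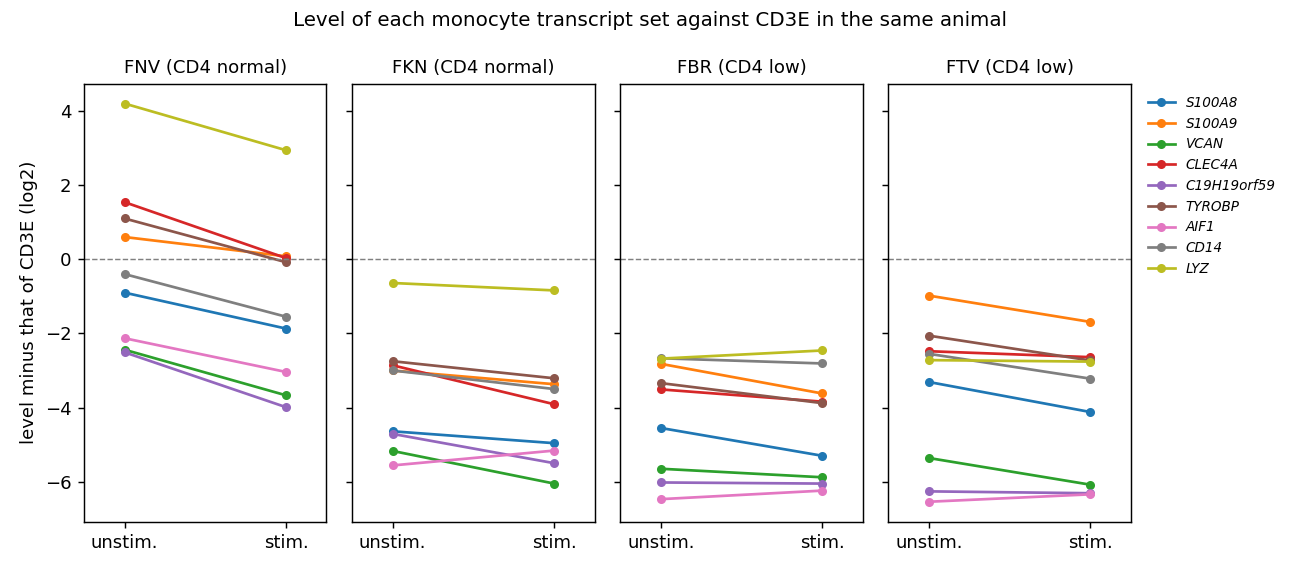
Log2 level of each monocyte transcript minus that of CD3E in the same animal, unstimulated (left) and stimulated (right), with 1 panel per animal and the dashed line at the level of CD3E. In FNV at rest LYZ lies at 4.20 and S100A9 at 0.60, while in FBR they lie at -2.68 and -2.82; heights of different genes are brightness of different probes and compare animals only.

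After stimulation FNV was still the highest animal for the probe that stood for each member. LYZ stood at 14.87 in FNV, 11.99 in FKN, 10.52 in FBR and 10.33 in FTV. S100A9 stood at 12.01, 9.46, 9.36 and 11.40. The range between animals narrowed from 6.02 to 4.54 for LYZ, from 4.18 to 3.05 for CLEC4A and from 1.61 to 1.06 for CD14, and was 2.60 before and 2.65 after for S100A9. On the stimulated self-self array of FNV, the dimmest of the 16, all brightness was low, with 33.3% and 37.6% of spots well above background. The responses from ratio arrays do not use it, but it gives 2 of the 4 channels of the stimulated FNV levels and enters the comparison of self-self arrays above.

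The next comparison set CD4 low against CD4 normal, 2 animals against 2. In limma, 0% of the 23038 features passed in the response, in the unstimulated level or in the stimulated level, with 492, 388 and 461 features at an unadjusted p under 0.05. FNV, the animal with other scans, is one of the normal pair. In the responses, both low animals lay above both normal ones for 7 of the 9 members (VCAN, CLEC4A, C19H19orf59, TYROBP, AIF1, CD14 and LYZ), against 15.4% of all features. Both low animals lay below both normal ones for S100A9, against 11.4% of all features, but its second probe overlapped and differed by 0.05. S100A8 overlapped, as did the second AIF1 probe. For CD3E, the T cell reference, both low animals also lay above both normal ones, with a difference of 0.17. Relative to CD3E in the same animal, VCAN, CLEC4A, C19H19orf59 and LYZ kept both low animals above, while TYROBP, AIF1 and CD14 overlapped. TYROBP relative to CD3E was -0.50 in FKN, -0.54 in FBR and -0.74 in FTV.

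The differences in response, low minus normal, were largest in C19H19orf59, LYZ and CLEC4A. In FBR and FTV, C19H19orf59 (7.13 and 7.01 at rest) and AIF1 (6.67 and 6.73) lay near undetected probes, where the offset shrinks a ratio. That limits what these 2 genes say about CD4 status. C19H19orf59 differed by 1.31 with an SE of 0.15 (unadjusted p = 0.000573 and adjusted p = 1 in limma). CLEC4A differed by 1.22 with an SE of 0.16 (unadjusted p = 0.000968 and adjusted p = 1 in limma), and its second probe by 1.06. Neither passed over all features. Within the later scans, with FKN as the only normal animal, FBR lay 1.19 and FTV 1.17 above FKN in C19H19orf59, and 1.0 and 1.22 in CLEC4A. Without FNV the differences were 1.18 for C19H19orf59 and 1.11 for CLEC4A. VCAN differed by 0.84, and FBR and FTV lay 1.14 and 0.61 above FKN. Each of its other probes differed by 0.51. In stimulated cells VCAN stood at 6.78 in FKN, 7.10 in FBR and 7.01 in FTV, also near undetected probes. For LYZ the difference was 1.23 with an SE of 0.48, and FBR and FTV lay 0.67 and 0.44 above FKN. TYROBP differed by 0.35, and FBR and FTV lay 0.19 and 0.04 above FKN. S100A8 (0.11) and S100A9 (-0.09) differed little, and S100A8 turned to -0.11 without FNV.

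Resting levels by CD4 status followed the split in animals. Both low animals lay below both normal ones for VCAN, C19H19orf59, AIF1 and LYZ, 4 of the 9 members against 19.6% of all features, and above them for none, against 14.5%. LYZ averaged 10.50 in the low and 14.55 in the normal animals, a difference of -4.06 (limma adjusted p = 0.825). C19H19orf59 averaged 7.07 and 9.16, a difference of -2.10 (limma adjusted p = 0.825). Against FKN alone, LYZ differed by -2.17 in FBR and -2.09 in FTV. S100A9 differed by -0.27 between low and normal animals and by 1.03 when FNV was left out. Neither of these S100A9 values passed (limma adjusted p = 0.939 and 1). In stimulated cells both low animals lay below both normal ones for C19H19orf59, AIF1 and LYZ, against 18.4% of all features, and above them for none, against 15.6%.

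Other genes of monocytes and macrophages were looked at from a list that leaves the members out. Of its 46 genes, 23 matched a probe by name and 19 were bright enough to be tested; ITGAM, CD33, THBD and VSIG4 were on the array and too dim. At rest 16 of the 19 were highest in FNV, against 46.2% of all features. Their median level was 10.64 in FNV, 8.61 in FKN, 8.08 in FBR and 8.88 in FTV. On stimulation 5 fell, none rose and 14 did not pass. Of all features, 20.9% fell and 19.1% rose, and the counts of this and of every list below are to be read against these shares. The median response was -0.54, and -1.07, -0.27, -0.14 and -0.24 in FNV, FKN, FBR and FTV. HMOX1, the heme-degrading enzyme, fell most, by -2.57, -1.68, -1.47 and -1.32 (mean -1.76, limma adjusted p = 0.00312). THBS1, the adhesive protein thrombospondin, fell by -1.20 on average (limma adjusted p = 0.00261). NAIP and CSF3R were also among the genes that fell.

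In 5 genes of that list, named here after their values were seen, FNV was highest at rest. CYBB, the catalytic chain of the phagocyte oxidase, stood at 12.61 in FNV, 8.82 in FKN, 7.42 in FBR and 8.51 in FTV, and changed by -1.78, -0.63, -0.04 and -0.31. CD36, a scavenger receptor, changed by -2.14, -0.88, -0.14 and -0.17, and CSF1R, the receptor for macrophage colony-stimulating factor, by -2.07, -1.12, -0.47 and -0.09. MS4A7 changed by -1.42, -0.77, -0.29 and -0.15. LGALS3, the lectin galectin-3, changed by -1.85, -0.61, -0.62 and 0.19. None of the 5 passed, and in each FNV changed most. At rest CD36 stood at 6.55 in FBR and 6.59 in FTV, MS4A7 at 6.70 in FTV and CSF1R at 6.81 in FTV, near undetected probes, where a fall could hardly be measured. With an offset of 0, CD36 (-1.28), CSF1R (-1.3) and MS4A7 (-0.95) passed in limma, with adjusted p of 0.0214, 0.0378 and 0.00895. With the scanner software's ratios CD36 was at -1.91, CSF1R at -1.47 and MS4A7 at -1.33, with limma adjusted p of 0.00123, 0.0327 and 0.00115. With the scan batch as a term all 5 passed, but that term takes its spread from the later animals alone, without FNV.

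The S100 family beyond the calprotectin chains had 6 tested genes, of which 2 fell, against 20.9% of all features, and 4 did not pass. S100A4 fell by -0.84 ± 0.20 and S100A6 by -0.79 ± 0.18 (limma adjusted p = 0.00195 and 0.00196); T cells express both. S100A12 was not analysed here. Among 5 tested partners of TYROBP, SYK, the kinase that TYROBP recruits, fell by -0.98 ± 0.39 (limma adjusted p = 0.00689) and SIRPB1, a receptor that pairs with TYROBP, by -0.51 ± 0.31 (limma adjusted p = 0.0277). SIRPB1 did not pass without FKN (-0.41), FBR (-0.48) or FTV (-0.50), with limma adjusted p of 0.103, 0.111 and 0.0922. With median centring S100A4, S100A6, SYK and SIRPB1 did not pass. HCST, TREM1 and TREM2 did not pass. TREM1, a receptor that pairs with TYROBP, stood at 11.58 in FNV, 7.72 in FKN, 8.94 in FBR and 10.45 in FTV, in the order FNV, FTV, FBR and FKN.

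Of 6 tested genes of the lipopolysaccharide receptor pathway around CD14, 2 fell, 1 rose and 3 did not pass. Over all features, 20.9% fell and 19.1% rose. CD180, a TLR-like receptor found mainly on B cells, fell by -1.01 ± 0.26, and the adaptor TIRAP by -0.76 ± 0.23. TICAM1, the adaptor for interferon induction, rose by 0.38 ± 0.19, and did not pass without FKN, FBR or FTV (limma adjusted p = 0.0972, 0.0923 and 0.0786). TLR4 stood at 10.20 in FNV, 7.14 in FKN, 7.87 in FBR and 9.54 in FTV at rest and changed by 0.12 ± 0.53, so it had the resting order of TREM1 and no common response.

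Inflammatory cytokines that monocytes release went the other way. Of 10 tested, 6 rose, against 19.1% of all features, none fell and 4 did not pass, with a median of 0.76. IL6 rose by 2.59 in FNV, 1.89 in FKN, 1.40 in FBR and 1.63 in FTV (mean 1.88 ± 0.51, limma adjusted p = 0.00203). IL12B, a chain of interleukin-12, rose by 0.19, 1.64, 1.05 and 2.68 (mean 1.39 ± 1.05, limma adjusted p = 0.0418), and did not pass without FKN, FBR or FTV. T cells also make some cytokines of this list, so it does not mark monocytes alone.

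Markers of other cell types were measured beside the members. Of the B cell markers, all 5 tested were highest in FNV at rest, against 46.2% of all features. Their medians were 10.27 in FNV, 8.30 in FKN, 8.0 in FBR and 7.57 in FTV. CD79B, a chain of the B cell receptor, fell by -2.60 ± 0.42 (limma adjusted p = 0.000684) and MS4A1, which codes for CD20, by -1.15 ± 0.34 (limma adjusted p = 0.00279), and 3 did not pass. Of 3 neutrophil markers tested, MMP9 fell by -0.88 ± 0.39 and CAMP by -0.58 ± 0.25, which did not pass without FKN (limma adjusted p = 0.051) or with median centring; CXCR1, MMP8, MPO and ALPL were too dim to be tested. MMP9 stood at 14.64 in FNV, 8.97 in FKN, 11.84 in FBR and 13.33 in FTV. None of 4 dendritic cell markers and none of 6 platelet markers passed. Of 5 natural killer cell markers FCGR3 fell, by -0.24, and did not pass without any one animal (limma adjusted p = 0.0614 to 0.122) or with median centring; NCR1, KLRC1 and SH2D1B were too dim. Of 4 erythroid markers HBA2 fell, by -0.23, and did not pass without FKN, FBR or FTV (limma adjusted p = 0.102, 0.0761 and 0.0701) or with median centring. HBA2 stood at 12.29 in FNV against 14.13 to 14.21 in the others.

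Summed over the tested genes of a list, normalised brightness at rest was 133000 in FNV, 12900 in FKN, 6600 in FBR and 13800 in FTV for the members. For the other monocyte and macrophage genes it was 143000, 47500, 39800 and 45000, and for the B cell markers 16100, 3680, 2650 and 2160. For CD3E and CD3D it was 22500, 40900, 41100 and 34400, and for the erythroid markers 5930, 29700, 26700 and 43800. The sums are ruled by the brightest probes and depend on the scaling between arrays. For the neutrophil markers it was 27900, 2480, 7280 and 14300, and for the dendritic cell markers 2630, 631, 498 and 643. In summed normalised brightness FNV was highest for monocyte, B cell, neutrophil and dendritic cell genes. It was lowest for T cell and erythroid genes and for the platelet markers (1260, 2220, 1320 and 1440). By the median of the neutrophil markers FNV was not highest, with 10.53 in FNV, 8.97 in FKN, 11.77 in FBR and 11.86 in FTV. Of 8 other T cell markers, SIT1 alone was highest in FNV; 2 rose, with CD3G at 0.51 and CD2 at 0.33, 5 fell, with SIT1 at -1.97 and CD5 at -1.0, and 1 did not pass. CD2 did not pass without any one animal (limma adjusted p = 0.0516 to 0.138), CD3G without FNV, FBR or FTV (0.0533, 0.0673 and 0.11) and CD5 without FKN, FBR or FTV (0.0637, 0.0657 and 0.053). With median centring CD2 and CD3G did not pass. The part that other cells or scanning played in the members' levels and responses was not tested.

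**Figure D4:**
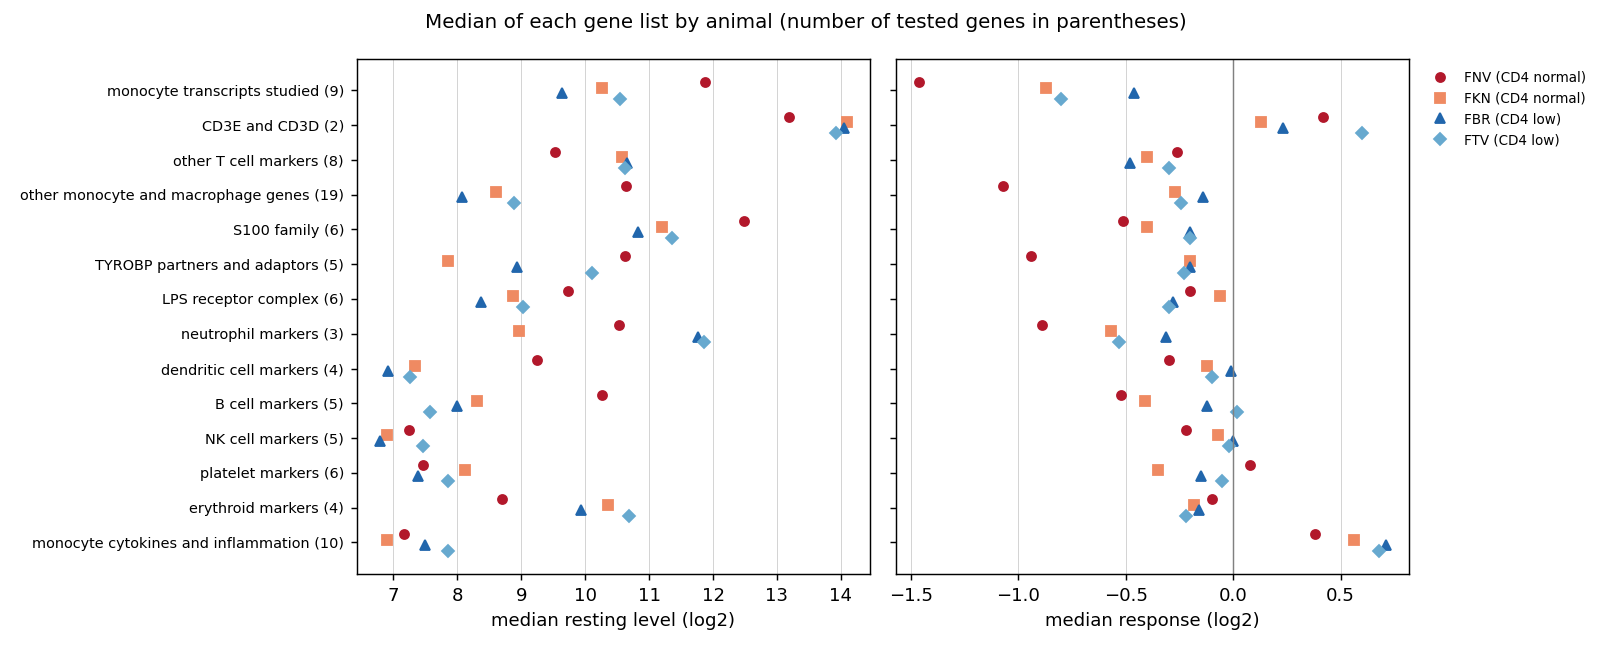
Median over the tested genes of each list in each animal, as resting level (left, log2) and as response to stimulation (right, log2), with the number of genes in parentheses. In FNV the median resting level of the other monocyte and macrophage genes is 10.64 and its response -1.07, against 8.08 to 8.88 and -0.27 to -0.14 in the other animals, while the other T cell markers are lowest in FNV at 9.53.

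The members followed one another over the 8 means of animal and condition. The correlation of each member's level with the mean of the others ran from 0.774 for S100A9 and 0.804 for CD14 to 0.974 for CLEC4A and 0.975 for TYROBP, as a description only, since the 8 means come from 4 animals and FNV is far from the others. Over 8619 named candidates, the 10 genes whose level was most like the members' mean were SYPL1 (r = 0.998), SYK, NEU1, ZBTB34, SNX16, SSPN, MANBA, ATP6V1G1, TMUB1 and C16orf72 (r = 0.988). SYK stood at 12.76 in FNV, 10.11 in FKN, 9.42 in FBR and 10.10 in FTV. NEU1 and MANBA, lysosomal enzymes that trim sugars, stood at 12.77 and 8.67 in FNV and between 10.51 and 10.94 and between 7.07 and 7.40 in the others. SYPL1 had a smaller range, from 10.93 to 12.01.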

How the data were processed

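RNA was labelled with Cy3 (channel 1) and Cy5 (channel 2). Per the file headers, the authors deposited output of Agilent Feature Extraction (10.7.3.1): spot and background intensity on a linear scale, and a log10 ratio of the channels. How the authors' deposited table of log2 ratios per animal was made is not stated; the submitters' processing notes list limma without a role. Here, limma 3.58.1 in R 4.3.3 applied normexp with an offset of 50 and loess within arrays, with control and outlier spots (at most 51 per array) at weight 0; no spot was saturated. Ratios were turned to stimulated over unstimulated and the 2 ratio arrays of an animal averaged, so n = 4. Levels used Aquantile normalisation. The filter asked for signal well above background in 2 or more animals, on both their ratio arrays, for RNA of the same condition; the brightest probe stood for a symbol. The 2 annotation editions differ in gene name for 8125 of 43803 spots, and the newer was used. Tests were lmFit and eBayes with Benjamini-Hochberg adjustment over all features, checked on simulated data. The number of animals, with 1 culture per animal and condition, limits the precision, and p-values measure the spread between 4 animals.

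Named genes were all members, CD3E, CD3D, in each list the 2 genes furthest from 0 in each direction among those that passed, markers too dim to test, and the 10 genes most like the members' mean. TREM1, TLR4, CYBB, CD36, CSF1R, MS4A7 and LGALS3 were added after their values were seen, as were NAIP and CSF3R; 1 gene is not reported here. The members and lists were chosen with earlier results of these data known. Alternatives covered background, normalisation, filter, probes, scan batch and leaving out animals. Animals pair the conditions, as the labels name them. Figures used Python 3.11.15 and matplotlib 3.10.9.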

Additional observations from a re-analysis of the deposited data

Results flagged for a closer look

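In 33 groups of 4 values (responses, unstimulated levels and stimulated levels of the members, CD3E and CD3D), 2 held an animal far from the others, and chance alone sets apart about 1 in 20. The AIF1 response of FNV was -1.38, with the next animal at -0.15 and the farthest at 0.07. The unstimulated CD3E level of FNV was 12.28, with the others from 13.14 to 13.27. The AIF1 response was also above 0 in both animals with low CD4 status and below 0 in both with normal status, a difference of 0.83, which did not pass limma's test (adjusted p = 1); the second AIF1 probe was at -0.15 in FBR, so it does not share that split.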

How the results depend on the processing

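The count of features that passed on stimulation, 9217 in the report, was 4090 with median centring and 1852 with the self-self arrays alone and no replicate block (unpaired conditions). With the replicate block, where animals pair the conditions, the self-self arrays gave 6831 features and the same 6 members, against 0 members unpaired (S100A9 -0.93, limma adjusted p = 0.619). Leaving out an animal gave 11607 (without FNV), 4949 (without FKN), 5261 (without FBR) and 6042 (without FTV) features and 4 to 5 members. Median centring left 3 members, no filter 5, the scanner's ratios 7 and a scan batch term 9; that term takes its spread from the 3 later animals alone. A slide as a block is the animal here and was not run separately. For CD4 status 0 features passed under every alternative run in the response; leaving out an animal gave 0 to 2 in the unstimulated level and 0 to 4282 in the stimulated level (4282 without FKN, where FNV alone stood for normal status and is assumed to vary like the others). The members' median response was -0.69 relative to CD3E, -1.79 relative to CD3D and -0.64 relative to the median of the T cell genes, and relative to CD3E -0.80 to -0.59 without single animals. No member's response to stimulation changed sign in a fit; the AIF1 probe used averaged 0.03 in the authors' deposited table, where it has no value for FNV, and the second AIF1 probe -0.65. TLR4 was at -0.14 without FKN.

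Differences by CD4 status that changed sign were not called. In the response, S100A9 was at 0.30 with median centring and S100A8 at -0.11 without FNV or with a scan batch term. Without FNV the unstimulated differences became 0.64 for S100A8, 1.03 for S100A9 and 0.33 for CD14, and the stimulated ones 0.46 for S100A8, 0.93 for S100A9, 0.28 for VCAN, 0.87 for CLEC4A and 0.11 for TYROBP. Without FBR S100A9 was at 0.71 unstimulated and 0.67 stimulated, and S100A8 and CLEC4A at 0 stimulated. Without FKN the stimulated CD14 difference was -0.36. The cause of these changes was not tested.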
